A study of Mus musculus with 18 samples.

Results

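The 86 genes described here encode the proteins of the cytosolic ribosome and a few close relatives. They were found by symbol, as the rows of the TPM table named Rpl or Rps with a number, Rplp0 to Rplp2 or Rpsa, after leaving out Rps6k kinase genes and symbols marked as pseudogenes. The table held 23359 gene symbols. Of the 86 members, 43 belonged to the large subunit, 3 to its stalk and 31 to the small subunit, 8 were paralogs with a symbol or annotation apart from the standard set, and 1, Rps19bp1, encodes a protein that binds a ribosomal protein and is not part of the ribosome. The row Rps4y2 is a synonym of Rps4l, which the annotation gives as a transcribed processed pseudogene on chromosome 6 (148354656 to 148355598, GRCm38).

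A ribosome joins a small subunit, which reads the mRNA, to a large subunit, which makes the peptide bond, and each subunit carries one copy of most of its proteins. Ribosomal protein genes are expressed in nearly all cells, and their mRNAs begin with a run of pyrimidines, the terminal oligopyrimidine (TOP) motif, through which their translation follows growth signals. Fusions of green fluorescent protein (GFP) to a large-subunit protein are used as reporters because they tag the ribosomes of the cells that make them. Processed pseudogenes, copies of an mRNA written back into the genome, are unusually numerous for this gene family.

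The libraries were made from fluorescence-sorted cells of the main olfactory epithelium, which holds the olfactory sensory neurons (OSNs), to compare OSNs that express trace amine-associated receptors with the remaining cells. In the Taar5-ires-Cre line, Cre made from the Taar5 transcript switched on the reporter lox-L10-GFP, and 7 GFP-positive libraries (Taar5+) and 9 GFP-negative libraries (controls) were made at postnatal day 11 to 14. In the Taar6-ires-Cre line, Cre made from the Taar6 transcript switched on lox-ZsGreen, which has no ribosomal part, and 1 ZsGreen-positive library (Taar6+) and 1 ZsGreen-negative library (Taar6-line control) were made at postnatal day 16 to 17. The labels give the strain as C57BL/6, whereas the paper's reporting summary gives mixed backgrounds and an older age in weeks. Controls carry the same alleles as the positive cells of their line and are a mixture in which OSNs with odorant receptors prevail. Which ribosomal protein gene is meant by L10 was not given in the sources used here, so Rpl10a and Rpl10 were both followed. Nothing says that libraries of one group came from separate animals, so p-values measure the spread between these libraries, which may be technical. In bulk libraries, fewer cells of a type and less RNA per cell cannot be told apart.

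Values are transcripts per 1000000 (TPM), a length-corrected share of each library. Levels are set side by side between genes, but those of genes that share sequence with others are uncertain, as described below. TPM keep no read depth, and the depth of each library is unknown. Rows above 0 ranged from 5939 in control replicate 2 to 17808, and the other 8 controls had at least 11352. The 9 mature OSN markers examined, Omp and Gnal among them, summed to 14484 to 51297 TPM in controls, 23187 to 31018 TPM in Taar5+ libraries, 26486 TPM in the Taar6-line control and 25253 TPM in Taar6+. Of these 9, 7 had log2 fold changes above 0 in Taar5+ against controls, and 0 were called higher. The median of the 9 was 0.24, whereas the median of their summed TPM was 33671 in controls and 25640 in Taar5+. Stoml3 alone was called, lower in Taar5+ with no overlap between the groups (log2 fold change −1.42, limma adjusted p = 0.00994). Sustentacular markers summed to 313 to 7217 TPM in controls and 161 to 14634 TPM in Taar5+, blood and immune markers to 248 to 6440 TPM and 18.9 to 1655 TPM, and horizontal basal cell markers had medians of 98.0 and 5.01 TPM. Medians in controls and Taar5+ were 3093 and 2131 TPM for immature OSN markers, 63.3 and 3.63 TPM for progenitor markers, 122 and 5.73 TPM for microvillar markers and 66.5 and 18.2 TPM for ensheathing glia markers, with overlapping ranges. All 3 horizontal basal markers and 3 of 5 blood and immune markers had log2 fold changes below 0 with unadjusted limma p-values under 0.05, none past the adjusted threshold, and 0 of 5 sustentacular markers had such a p-value. Of the sustentacular log2 fold changes, 4 of 5 were above 0. Such a p-value was found for 1 of 2 tested microvillar markers and 0 immature OSN, progenitor or glia markers. Their part in the results below was not tested.

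RefSeq gave a transcription start for 65 of the 86 members (GRCm38.p6). A run of at least 5 pyrimidines that began at the annotated start was found in 16 of the 65 (24.6%) against 5.3% of 27025 genes, and a run of at least 8 within 50 bases of the start in 53 (81.5%) against 39.3%. The letters CCGGAAG, read on both strands from 250 bases before to 50 bases after the start, were found in 26 members (40.0%) against 9.9% of all genes, and TATAAA on the gene's strand in 9.2% against 9.8%. These motifs were chosen with the sequences in view, and a match is a description. The windows below hold 15 bases on each side of the start and show what a TOP start looks like in 3 members, then the starts of the 2 candidate reporter genes. Of the 2 annotated starts of Rpl10a the upstream one is shown. The windows of Rpl10 and Rpl10a hold no such run, but within 50 bases the longest was 10 bases for Rpl10, 10 for the downstream start of Rpl10a and 7 for the upstream one, so both genes are among the 53. Capitals mark runs of at least 8 pyrimidines.
Rpl35, chr2:39005117-39005146, minus strand: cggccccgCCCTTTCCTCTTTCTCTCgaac
Rpl15, chr14:18270972-18271001, minus strand: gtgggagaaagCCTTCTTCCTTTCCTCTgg
Rps6, chr4:86857353-86857382, minus strand: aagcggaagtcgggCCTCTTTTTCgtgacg
Rpl10a, chr17:28328456-28328485, plus strand: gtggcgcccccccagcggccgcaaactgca
Rpl10, chrX:74270801-74270830, plus strand: gttgttacagtggaagataggccgcctata

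The members were abundant in the OSN libraries. Their summed level was 18535 ± 6681 TPM (SD, n = 9) in controls, or 1.85% of a library, and 16293 ± 5609 TPM (SD, n = 7) in Taar5+ libraries, or 1.63%. The lowest, median and highest controls had 11570, 17447 and 31753 TPM, and the same values for Taar5+ libraries were 10150, 14763 and 28196 TPM. The ranges overlapped over most of their length, and the difference of the means was smaller than either SD. The 2 libraries numbered 1 were the highest of their groups. The Taar6-line control had 12869 TPM and Taar6+ had 8246 TPM, the latter below every library of the Taar5 line.

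**Figure D1:**
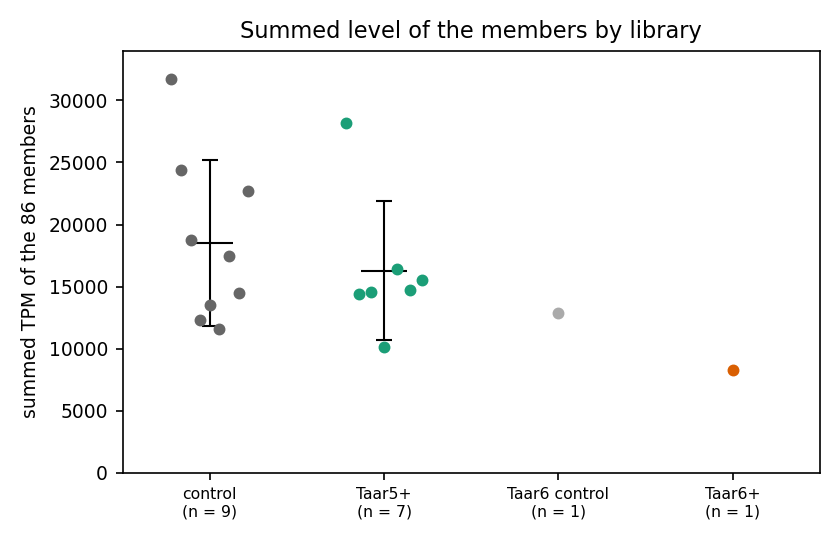
Summed TPM of the 86 members (vertical axis, from 0) in each library, with points for libraries and bars for the mean ± SD of the groups with replicates. Controls spread from 11570 to 31753 TPM, Taar5+ libraries from 10150 to 28196 TPM, and the single Taar6+ library lies below both at 8246 TPM.

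Levels as listed differed widely between members, although most of their products are present in equal number in a ribosome. How far sequence shared with other genes, described below, enters these levels was not tested. Over the 16 libraries of the Taar5 line, the mean TPM of the 77 large-subunit, stalk and small-subunit members ran from 5.48 to 2831 with a median of 127 and quartiles of 67.4 and 209. Of these, 2 were under 10 TPM, 25 between 10 and 100, 44 between 100 and 500, and 6 at 500 or more. The median was 118 TPM for the large subunit, 145 TPM for the small subunit, 348 TPM for the stalk proteins, which recruit translation factors, and 55.1 TPM for the paralogs. Within a library the median small-subunit level was 1.19 ± 0.169 times the median large-subunit level in controls (SD, n = 9) and 1.12 ± 0.207 times in Taar5+ (SD, n = 7).

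Rpl41, which encodes a peptide of the large subunit so short that it is among the smallest known in eukaryotes, led the list with 1769 to 5230 TPM in controls (median 2537) and 1734 to 5351 TPM in Taar5+ (median 2525). It alone made up 16.1% of the summed mean level of the members. Among the 8 highest were also Rpl4, Rps9, the stalk gene Rplp1, Rpl8, the paralog Rpl36al and Rps14, with means from 677 TPM for Rpl4 down to 484 TPM for Rps14. The 8 genes together made up 38.8% of the summed mean level. At the other end, Rps15a and Rps12 of the small subunit had means of 5.48 and 5.67 TPM. Both encode standard proteins of the small subunit, and their rows lay below those of the tested paralogs.

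**Figure D2:**
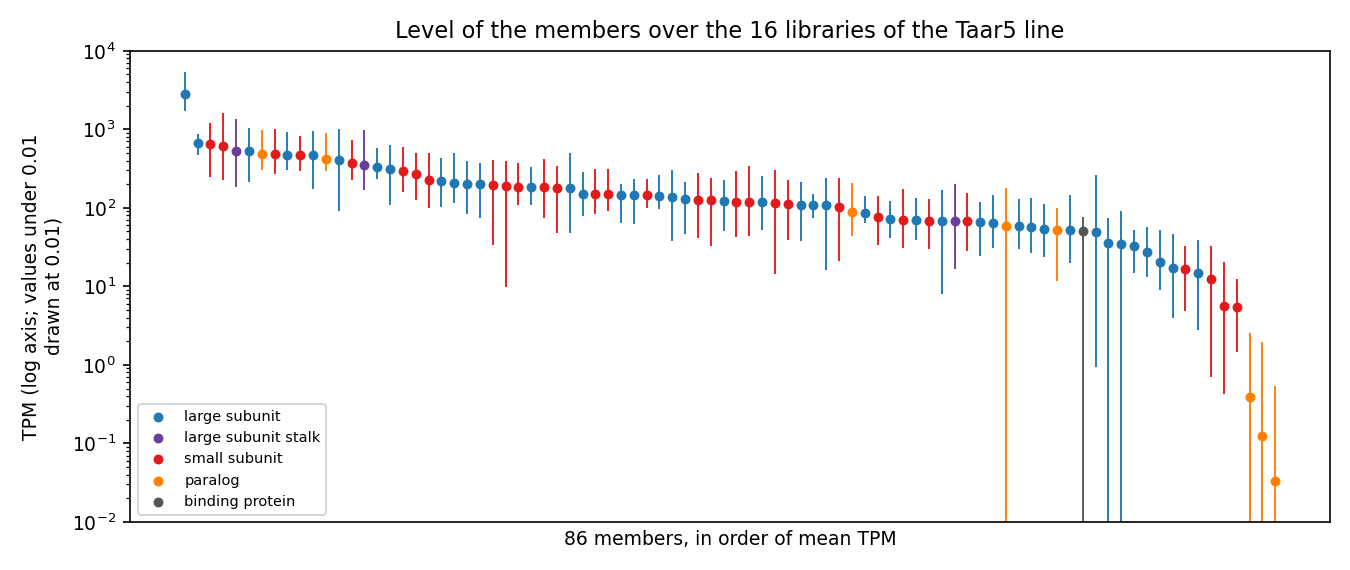
Mean TPM of each of the 86 members over the 16 Taar5-line libraries (points, log axis), in descending order, with lines from the lowest to the highest library and colours for the class of the protein. Rpl41 stands apart at the top, most members lie between 10 and 500 TPM, and the 3 rightmost points are the paralogs Rpl3l, Rpl10l and Rpl39l.

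In 81 members the value was above 0 in all 16 libraries of the Taar5 line, and no member was at 0 throughout the 18. From 1 to 4 members were listed at 0 in each of these 16 libraries, a value that can be a failed estimate. The paralogs fell into a group that was expressed and a group that was at or near 0. Rps27l had 446 ± 198 TPM in controls and 397 ± 93.2 TPM in Taar5+, Rpl36al 522 ± 210 and 443 ± 144, Rpl22l1 97.4 ± 57.4 and 74.6 ± 19.5, and Rpl7l1 62.6 ± 20.1 and 38.4 ± 14.5 (SD, n = 9 and n = 7). Rpl3l, known as the heart and skeletal muscle form of Rpl3, had a mean of 0.635 TPM in controls and a highest value of 2.51 TPM there. Rpl10l and Rpl39l, known mainly from the testis, were listed at 0 in all 9 controls and reached 1.98 and 0.534 TPM in 1 Taar5+ library each. These 3 paralogs were the members that did not reach 1 TPM in at least 7 of the 16 libraries, and they were not tested.

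The members varied together from library to library. Over the 16 libraries, 75 of the 83 tested members (90.4%) had a Pearson r above 0.5 with the median of the other members, against 7.49% of all 12502 genes tested with the median of the members, and the median r was 0.85 against 0.09. These coefficients describe libraries that share one scaling each. With both groups pooled, r was 0.95 for Rpl10 and 0.05 for Rpl10a, and Rpl26 and Rps19bp1 had values below 0. The pooled r of Rpl10a includes its difference between the groups, given below. Within the 9 controls, the log2 difference from the median of the other members had an SD of 0.183 for Rpl10a and 0.355 for Rpl10. The smallest spread between controls was that of Rpl4, at 551 to 882 TPM, apart from Rpl10l and Rpl39l at 0 in all of them. The widest were those of Rpl26, Rpl30 and Rps19bp1. Rpl26 was near 0 in control replicates 1 and 2 (0.0029 and 0.0044 TPM) and between 9.09 and 56.8 TPM in the other 7.

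Rpl10a, which encodes a large-subunit protein next to the site where tRNA leaves the ribosome, was the member that separated the groups. Its TPM in control replicates 1 to 9 were 296, 170, 173, 109, 136, 90.6, 179, 115 and 212, and in Taar5+ replicates 1 to 7 they were 857, 362, 999, 793, 308, 679 and 1007. Every Taar5+ library was above every control, with the narrowest gap between control replicate 1 (296 TPM) and Taar5+ replicate 5 (308 TPM). By limma on log2(TPM + 1) it was higher in Taar5+ by 2.08 ± 0.29 (SE) on the log2 scale (95% interval 1.47 to 2.68, adjusted p = 0.001205). It was the single member called higher among the 83 tested, where 0.144% of the 12502 genes tested were called higher. It was also the single member whose groups did not overlap, again against 0.144% of all genes in either direction. When the Taar6-line control, in which Rpl10a was nearly absent, was counted as a 10th control, the log2 fold change was 2.77 and the adjusted p was 0.171. Taar5+ cells were sorted for the L10-GFP reporter, which may hold the sequence of this gene. The row cannot tell transcripts of the gene itself from those of such a reporter, and their shares were not tested.

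Because all members share the scaling of a library, Rpl10a was next set against the median of the other 85 members in the same library, as a difference of log2(TPM + 1). In controls it lay at 0.40 ± 0.18 (SD, n = 9), between 0.16 and 0.69, and in Taar5+ at 2.72 ± 0.88 (SD, n = 7), between 1.58 and 3.95. The difference of 2.32, or 4.99-fold, gave p = 8.74e-05 in a two-sided exact permutation test, and with 11440 ways to split these 16 libraries no smaller p is possible. Rpl10a was chosen with earlier results of these data known, so this p is not separate evidence beside the limma result. Rpl10a ranked 27th to 43rd among the 86 members in controls and 2nd to 16th in Taar5+ libraries. It took 0.885 ± 0.107% of the summed member TPM in controls (SD, n = 9) and 4.74 ± 2.34% in Taar5+ (SD, n = 7). The spread within Taar5+ was wide, from 1.88% in replicate 5 to 7.81% in replicate 4, whereas controls stayed between 0.697% and 1.02%.

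Rpl10, which encodes a different large-subunit protein that joins late in the assembly of the subunit, showed no such separation. It had 36.6 to 241 TPM in controls, with a median of 116, and 16.2 to 189 TPM in Taar5+, with a median of 83.0. The ranges overlapped almost fully. The log2 fold change was −0.42 ± 0.45 (SE, 95% interval −1.36 to 0.52, limma adjusted p = 0.955). Relative to the other members the difference between the groups was −0.15 on the log2 scale (exact two-sided permutation p = 0.576), and it turned to 0.06 without Taar5+ replicate 4 and to 0.32 with the Taar6-line control as a 10th control. The genes for Rpl10a and Rpl10 lie on chromosome 17 (28328471 to 28331033) and on chromosome X (74270812 to 74273135), both on the plus strand of GRCm38.

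**Figure D3:**
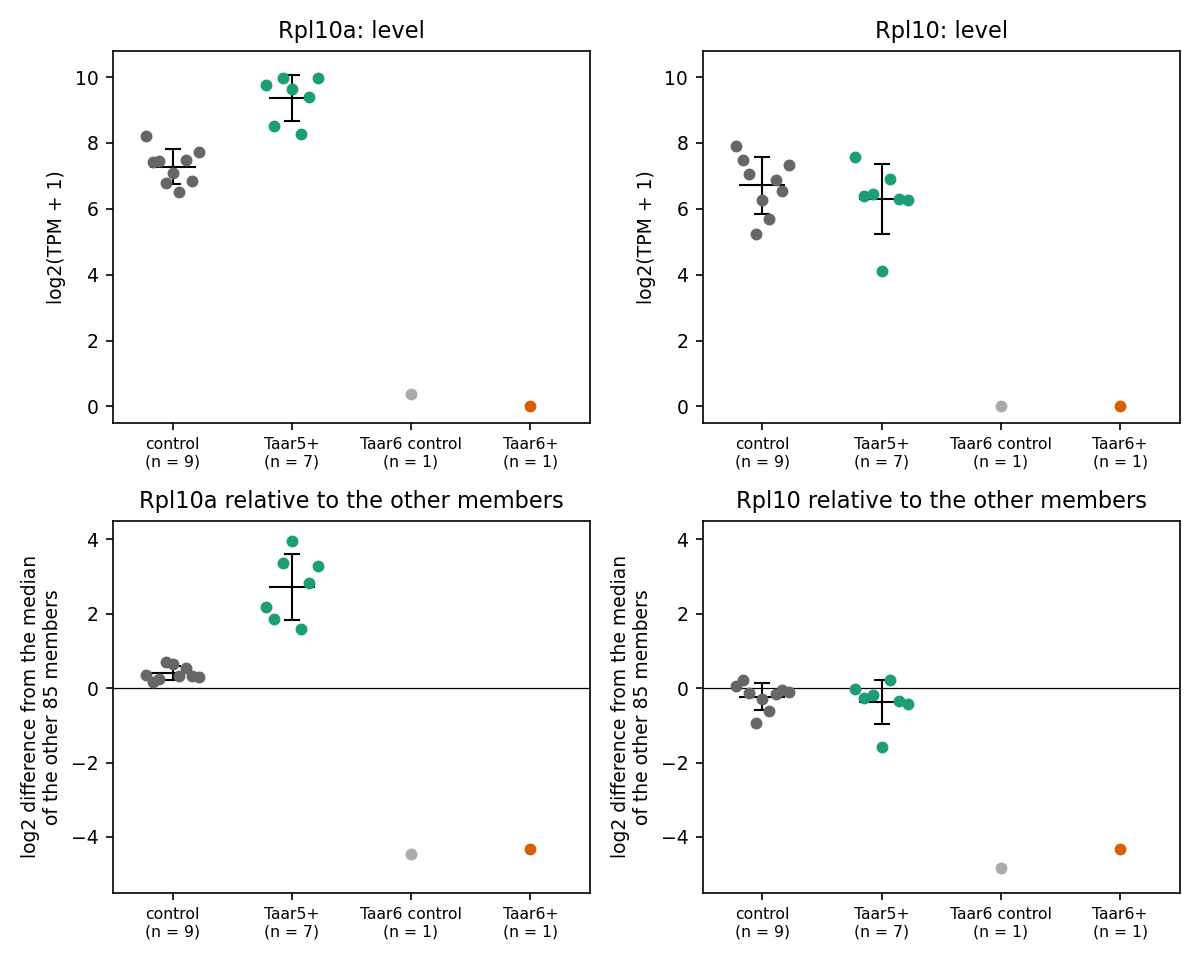
Level of Rpl10a and Rpl10 as log2(TPM + 1) (top) and as the difference from the median of the other 85 members of the same library (bottom), with points for libraries and bars for the mean ± SD where a group has replicates. All 7 Taar5+ points of Rpl10a lie above all 9 controls in both panels, those of Rpl10 overlap with the controls, and both genes are at or near 0 in the 2 Taar6-line libraries.

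Apart from Rpl10a, no member passed the adjusted threshold in either direction, and 0.024% of all genes were called lower. At an unadjusted limma p under 0.05 there were 5 of 83 members, Rpl10a with a value above 0 and 4, among them Rps4y2, Rpl7l1 and Rpl4, with values below 0, against 7.05% of all genes tested. The log2 fold changes of the other 82 members nevertheless leaned to one side, with 74 of 82 (90.2%) below 0 and a median of −0.23, where 48.6% of all genes tested were below 0 and their median was 0.02. Since the members follow one another between libraries, these 82 values are not 82 separate measurements. When control replicate 2, the library with the fewest rows above 0, was left out, 73 of the 82 (89.0%) were below 0 against 65.0% of all genes tested, and the medians were −0.21 and −0.17. Without control replicate 1, the library with the highest summed level, 59 of 82 (72%) were below 0 against 45.3% of all genes tested. The medians in that fit were −0.13 and 0.07.

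By class, 38 of 43 large-subunit members had log2 fold changes below 0 (median −0.23), as did 28 of 31 small-subunit members (median −0.24), all 3 stalk members (median −0.15) and all 5 tested paralogs (median −0.22). The largest positive values after Rpl10a were those of Rpl26 (1.51 ± 0.86, SE), Rps27 (0.89 ± 0.67), Rps19bp1 (0.37 ± 0.70) and Rpl28 (0.08 ± 0.32), with limma adjusted p-values from 0.850 to 0.983. None of these exceeded the spread between libraries. For Rpl26 the value was 1.04 without control replicate 1 and also without control replicate 2, the 2 libraries in which it was near 0. Rps19bp1 was listed at 0 in control replicate 2.

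The most negative value was that of Rps4y2, at −2.16 ± 0.67 (SE, unadjusted p = 0.0044, limma adjusted p = 0.297). Its TPM in control replicates 1 to 9 were 68.7, 179, 62.9, 18.3, 48.1, 53.3, 108, 121 and 97.4, and in Taar5+ replicates 1 to 7 they were 24.4, 12.1, 21.2, 0, 71.7, 30.9 and 15.7. The groups overlapped through control replicate 4 and Taar5+ replicate 5. Rps4x, the X-linked gene for the standard small-subunit protein of this name, had −0.76 ± 0.52 (SE) and 9.69 TPM in Taar5+ replicate 4 against at least 93.8 TPM in every control. Rpl22 (−0.78 ± 0.73), Rpl7l1 (−0.75 ± 0.33) and Rpl31 (−0.59 ± 0.43) followed, none past the adjusted threshold. Rps4y2 came to −1.49, Rps4x to −0.18 and Rpl22 to −0.19 without Taar5+ replicate 4, the library with the lowest summed level.

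Rpl4, a large-subunit protein that lines the tunnel through which the new peptide leaves, had the smallest SE of the family. It had 551 to 882 TPM in controls (median 760) and 473 to 741 TPM in Taar5+ (median 608), a log2 fold change of −0.30 ± 0.14 (SE, unadjusted p = 0.0438, limma adjusted p = 0.678). With array weights, which give less weight to libraries far from their group, 6 members (7.23%) were called lower, Rpl35, Rpl4, Rps19, Rps26 and Rps4y2 among them, against 9.70% of all genes tested.

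**Figure D4:**
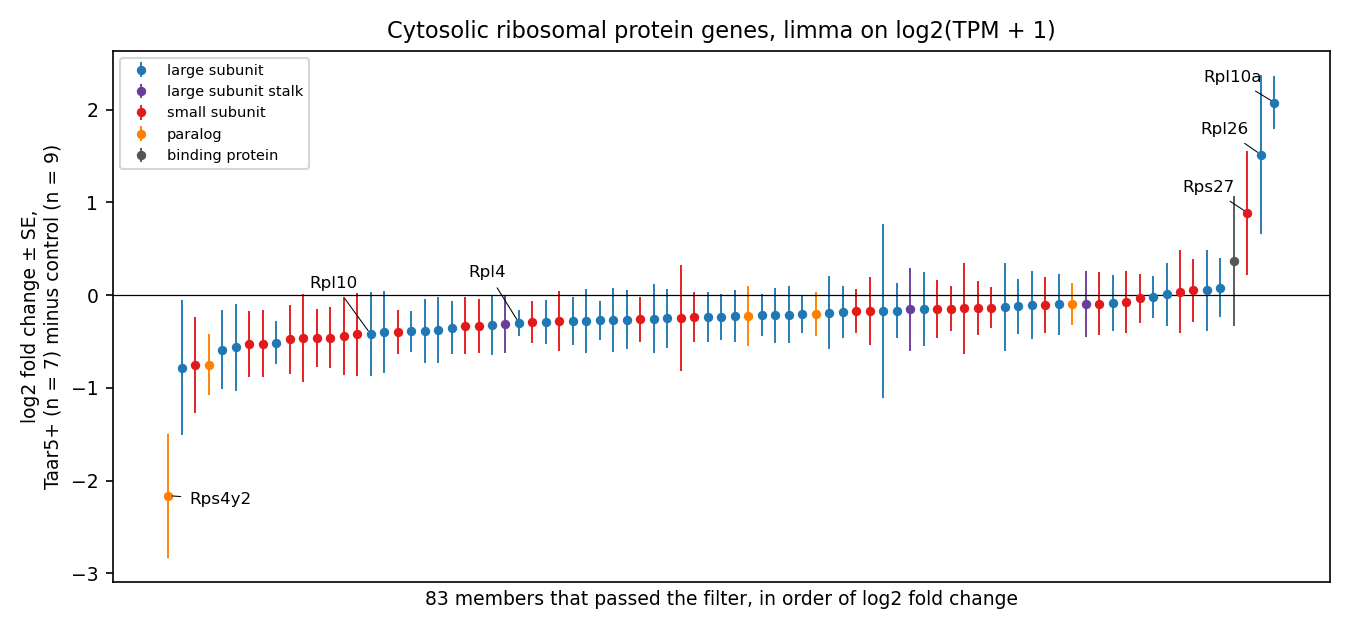
Log2 fold change of Taar5+ (n = 7) against control (n = 9) with its SE from limma on log2(TPM + 1) (vertical axis) for the 83 tested members in ascending order, coloured by the class of the protein. Most points lie between −0.8 and 0.1, Rpl10a lies at the upper end at 2.08 with a small SE, and Rpl26, Rps27 and Rps4y2 have wide ones.

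The other parts of the translation machinery were read in the same fit. Among 76 mitochondrial ribosomal protein genes, which serve the separate ribosome of the mitochondrion, none was called, 39 were below 0 and the median was −0.01. None was called among 35 initiation factors (median −0.03), 8 elongation factors (median −0.15) and 65 ribosome biogenesis factors (median 0.05). At an unadjusted limma p under 0.05 there were 2, 0, 0 and 2 genes in these 4 lists. Among 21 other mRNAs known to carry a TOP motif, 14 were below 0 with a median of −0.13, and none was called at either threshold. Fau, whose product is cut to release a ribosomal protein from a ubiquitin-like part, and Gnb2l1, the scaffold protein of the small subunit now named Rack1, had log2 fold changes between −0.16 and −0.13.

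The 2 libraries of the Taar6 line differed from those of the Taar5 line gene by gene rather than by a common factor. Line, reporter and age cannot be told apart here, and with 1 library in each group there was no test. In the Taar6-line control 46 of 83 members (55.4%) were below the lowest of the 9 controls, against 5.92% of all genes tested, and 5 were above the highest, against 31.3%. In Taar6+ 54 of 83 (65.1%) were below the lowest of the 7 Taar5+ libraries, against 11.5% of all genes, and 2 were above the highest, against 33.5%. The members that were low were mostly the same in both, as 45 were below the range in each. The median difference was −1.53 for the Taar6-line control and −1.84 for Taar6+ on the log2(TPM + 1) scale, where the medians of all genes tested were 0.47 and 0.51.

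Of the 86 members, 8 were listed at 0 in both Taar6-line libraries, of which 3 were the paralogs Rpl3l, Rpl10l and Rpl39l, at or near 0 in the Taar5 line too. The other 5 made up 6.02% of the tested members, against 1.25% of all genes tested, and 10 more were at 0 in Taar6+ alone, against 1.93% of all genes. Rpl35 is the clearest example, with 308 to 921 TPM in controls and 299 to 564 TPM in Taar5+ and a value listed at 0 in both libraries of the Taar6 line. Rpl24, with 39.0 to 133 TPM in controls, and Rpl10 were also listed at 0 in both. Rpl10a had 0.308 TPM in the Taar6-line control and was listed at 0 in Taar6+. Fau was low in the same way, with 220 to 710 TPM in controls against 5.20 and 3.52 TPM. By contrast, Rpl8 had 1229 TPM in the Taar6-line control and 770 TPM in Taar6+, against control and Taar5+ medians of 522 and 448 TPM. Rpl41 had 2718 and 1741 TPM, within the ranges of the Taar5 line.

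The low values went with how much of a member's transcript is also found elsewhere in the transcriptome. For 1 annotated transcript of each gene, every stretch of 50 bases was looked up in the GENCODE M21 transcripts of all genes at other positions, pseudogenes included. The share of stretches found elsewhere had a median of 48.8% over the 86 members and was above 0 in 82. It was 77.5% for Rpl10a, with 5 other genes, all of them pseudogenes, and 92.1% for Rpl10, with 15 other genes, of which 14 were pseudogenes. How the authors' pipeline assigned reads that match several genes is not stated, so levels of members with high shares are uncertain in every library.

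Over the 86 members, the share had a Spearman rho of −0.55 with the difference between the Taar6-line control and the controls, and of −0.61 with the difference between Taar6+ and the Taar5+ libraries. These describe 86 genes of single libraries and are not over replicates. With the mean level in the Taar5 line the rho was 0.04. Among 16 members with a share under 25%, 3 of them the paralogs at or near 0, the median difference of the Taar6-line control was 0.00 and 1 was below −2. Among 51 members with a share from 25% to under 75% the median was −1.53, 22 were below −2 and 8 were above 0. Among 19 members at 75% or more the median was −3.29, 13 were below −2 and none was above 0. In Taar6+ the medians of these 3 groups were 0.00, −1.84 and −3.85. Single members departed from this order, as Rpl30 (47.8% shared) and Rpl29 (66.8%) were above their control median in the Taar6-line control by 1.13 and 1.03, and Rpl35, with the lowest value, has a share of 40.1%.

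Genes outside the family with long shared stretches were also low in the Taar6-line control. Of 179 genes of the lists above and the mature OSN markers with a share under 25%, 0.559% were below −2 in the Taar6-line control and the median was −0.10. Of 23 with a share from 25% to under 75%, 21.7% were below −2 and the median was −1.34. Both genes at 75% or more were below −2, and Mrpl23, one of them, had a control median of 123 TPM and was listed at 0 in both Taar6-line libraries. Over all genes tested, 2.50% were below −2.

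**Figure D5:**
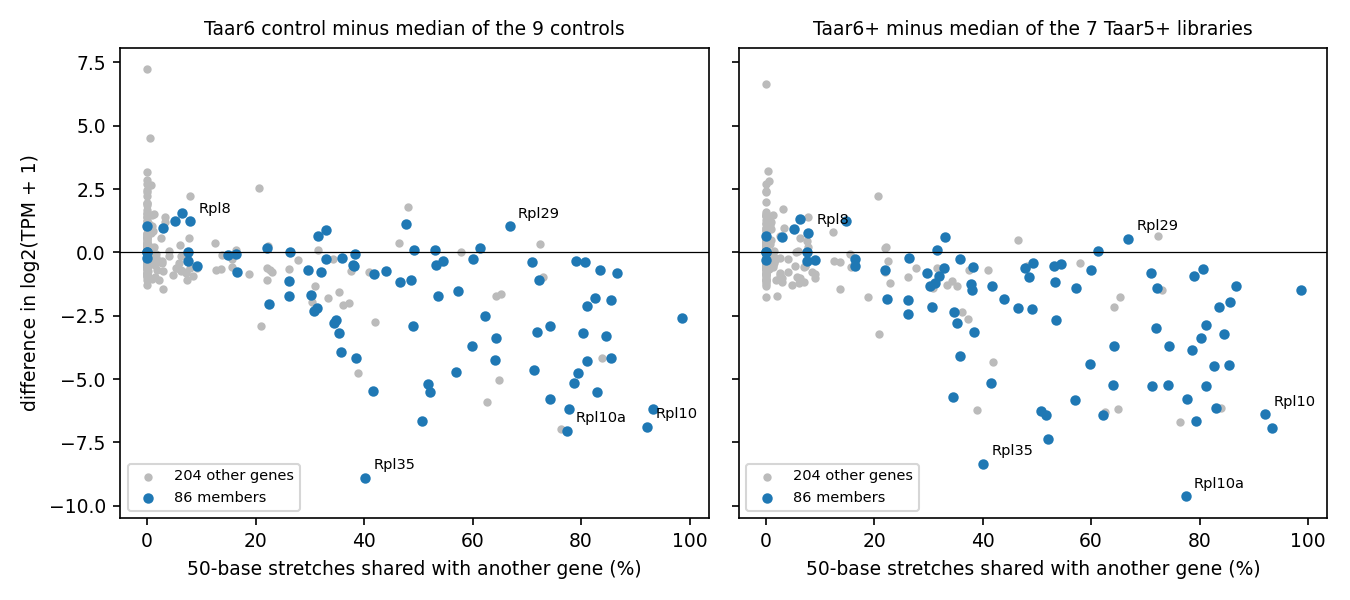
Difference in log2(TPM + 1) between each Taar6-line library and the median of its Taar5-line counterparts (vertical axes) against the percent of 50-base stretches of a gene's transcript found in another gene (horizontal axes), for the 86 members (blue) and 204 tested genes of the other lists (grey). Members with shares under 25% lie around 0, and among the 19 members at 75% or more none lies above 0 in either panel.

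Between the 2 libraries of the Taar6 line, 19 of 83 members were lower in Taar6+ than in the Taar6-line control by more than 1 on the log2(TPM + 1) scale, where 8.74% of all genes tested were. The opposite held for 3 members, against 2.83% of all genes. For Rpl4 the values were 725 TPM in the Taar6-line control and 506 TPM in Taar6+, and for Rps4y2 they were 63.3 and 51.1 TPM. Rpl10a differed by −0.39 on this scale, from 0.308 TPM to 0, both too low to give a direction.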

How the data were processed

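Per the paper's methods and the submitters' processing notes, the authors made Smart-seq2 libraries from sorted cells, trimmed reads with Trimmomatic 0.36, mapped them to mm10 (GRCm38) with HISAT2 2.1.0 and quantified genes with Cufflinks 2.2.1. The notes also name DESeq2. The deposited values are TPM for 18 libraries. The step from Cufflinks output to TPM, the annotation, strand and the treatment of reads with several matches are not given in the sources used here. TPM sum to 1000000 and keep no depth, so precision is limited to the spread between libraries.

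The table held 23847 rows. The 488 that repeat a symbol were summed with it, and no member was repeated. Values of 13 Taar genes in control replicate 2 are identical to those of replicate 1 and were set to missing. The test was limma 3.58.1 in R 4.3.3 (lmFit, then eBayes with trend). It used log2(TPM + 1) of the 12502 genes that reached 1 TPM in 7 or more of the 16 Taar5-line libraries. The p-values were adjusted over all of these by Benjamini-Hochberg, with a threshold of 0.05. Fold changes on this scale understate the change of genes with low values. Within-library values of Rpl10a and Rpl10 were compared by permutation over every split of the libraries, exact and two-sided (Python 3.11.15, numpy 2.4.6). Positions and transcripts are from GENCODE M21 on GRCm38, and starts are from RefSeq (GRCm38.p6), with 1 of 86 members matched by synonym.

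The members, gene lists and tests were chosen with earlier results of these data known. Named genes were Rpl10a and Rpl10, members with an adjusted p under 0.05, the 8 members of highest mean TPM, the 5 largest log2 fold changes of each sign, the paralogs, Rps19bp1, Fau and Gnb2l1, members at 0 throughout, and the 3 largest and smallest SDs in controls. Rps15a, Rps20, Rps12, Rpl29, Rpl35, Rpl24, Rpl15, Rps6, Mrpl23, Stoml3 and the members called with array weights were named after their values were seen. Some genes that these rules select are not reported here. The alternatives changed the scaling (quantile normalization, or TPM rescaled after receptor genes were removed), the pseudocount, the filters, the trend in eBayes, array weights, a replicate block, 10 controls, all 18 libraries with a term for the line, first rows of repeated symbols, other reference members, medians for means, and libraries left out.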

Additional observations from a re-analysis of the deposited data

Results flagged for a closer look

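Dixon's criterion was applied to 62 groups of values, each of one quantity over the 9 controls or the 7 Taar5+ libraries. In 14 of them a library lay far from the others. The criterion is set to flag about 1 in 20 groups of separate values. Some quantities were picked for their spread or fold change, and members vary together, so the 14 cannot be set against that share. Values are log2(TPM + 1) unless said otherwise. Taar5+ replicate 4 was the lowest of its group for Rpl10 (4.11, or 16.2 TPM), for Rpl10 relative to the other members (−1.59), Rps9 (7.97, or 249 TPM), Rps4x (3.42, or 9.69 TPM), Rpl7l1 (3.68, or 11.8 TPM) and Rps4y2 (0.00, listed at 0). Control replicate 2 was the lowest for Rps19bp1 (0.00, listed at 0) and Rpl30 (0.001). Taar5+ replicate 2 was the lowest for Rps19bp1 (4.48, or 21.4 TPM). Taar5+ replicate 1 was the highest for Rpl28 (6.75, or 106 TPM) and for the summed member TPM (28196 TPM, with the next at 16390 TPM). Taar5+ replicate 3 was the single library of its group above 0 for Rpl10l (1.57, or 1.98 TPM) and for Rpl3l (0.60, or 0.518 TPM), and Taar5+ replicate 5 for Rpl39l (0.62, or 0.534 TPM). A single value above 0 meets the criterion whatever its size.

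Rpl10a was higher in every Taar5+ library than in every control and differed by −0.387 between Taar6+ and the Taar6-line control, from 0.308 TPM to a value listed at 0. The difference between the lines was not tested, since the Taar6 line has 1 library in each group.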

How the results depend on the processing

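Rpl10a was called higher under 11 of 12 alternatives of the limma fit (log2 fold change 1.80 to 2.77) and in all 16 fits without one library (1.97 to 2.26). With 10 controls the value was 2.77 with an adjusted p of 0.171, and 0 members were called higher. Members called lower numbered 0 in all fits except that with array weights, which called 6, among them Rpl4 (−0.46) and Rps4y2 (−1.74). The count of all genes called was 21, and it was 109 with quantile normalization, 1410 with array weights, 337 without control replicate 2 and Taar5+ replicate 5 together, and 16 to 148 without one library, with 148 lacking control replicate 2 and 66 lacking Taar5+ replicate 5. Rpl10a relative to the other members ranged from 2.11 to 2.80 over 6 alternatives and 16 fits without one library, each past the threshold. For Rpl10 this difference was 0.32 (exact permutation p = 0.817) with 10 controls and −0.25 to 0.06 without one library, with 0.056 without Taar5+ replicate 4. The log2 ratio of summed TPM (−0.19) stayed between −0.37 and −0.05. The median of the members without Rpl10a, added after seeing the data, was −0.07 with 10 controls, equal to that of all genes tested. Same-numbered libraries correlated at −0.01 to 0.28, with 5 of 7 pairs above 0.1 and 3 Taar5+ libraries closest to the control of their own number, so a pairing was not shown for every pair. The replicate block gave 12 calls in all. Unknown depth limits values near 0. The cause of these changes was not tested.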
